A study of Mus musculus with 3 samples.

Results

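The genes described here were 10 genes of Langerhans and dendritic cells (Cd207, Ly75, Itgax, Cd24a, Flt3, Zbtb46, Batf3, Irf4, Cd83 and Fscn1), measured in macrophages sorted from mouse back skin. The set was chosen from earlier values on the same arrays, on which Cd207 and Itgax were higher at later stages while class II genes were not, so every value below is a description and none was tested. Of the 19752 genes that a RefSeq transcript tied to a probe of the array, 9 were members, and Zbtb46 had no probe matched in this way. All 9 were well above background on at least 1 array, by the scanner software's own call, and 8 of them were so on all 3 arrays. Ly75, which was not well above background at P42, was the exception.

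The cells were CD11b+Gr1-F4/80+ skin resident macrophages of CD1 mice, isolated at postnatal days 42, 55 and 69 (P42, P55 and P69), which the study calls early, mid and late telogen (Te, Tm and Tl), the resting phase of the hair follicle. The study's text dates early telogen slightly later than the label of the P42 array, and the label is used here. No genotype, drug or other treatment distinguished the arrays, and age was the only difference that the labels gave. Each stage was 1 array hybridised with RNA pooled from 3 littermates, so there was no replicate, no error between animals and no p-value. The very small RNA amounts were amplified before labelling, and all 3 arrays lay on 1 slide.

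Langerhans cells are the dendritic cells of the epidermis. They take up antigen there, make langerin (Cd207), the lectin that forms their Birbeck granules, and carry F4/80 and CD11b, the markers of the gate used for this sort. Conventional dendritic cells of the dermis develop under Flt3 ligand and the transcription factors Batf3 or Irf4, and dendritic cells of either kind raise Cd83 and Fscn1 when they mature and leave for the lymph node.

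All 11 macrophage genes with a probe were well above background on every array. This call cannot check the macrophage label, because all 12 keratinocyte genes and all 5 endothelial genes passed it on every array too. Adgre1, which encodes F4/80, had log2 levels of 4.83 at P42, 5.51 at P55 and 5.15 at P69. A level is the log2 processed intensity minus the 75th percentile of its array, so a level of 0 is the 75th percentile. Of 9 genes of type 1 conventional dendritic cells with a probe, 8 were well above background at P42, 7 at P55 and 8 at P69. Xcr1, a defining marker of these cells, was so on every array, at log2 levels of -2.39, -2.42 and -3.30. Clec9a, another such marker, was below that call at P42 and P55 and passed it only at P69, at a log2 level of -4.64. Its P42 level was -4.55, and the lowest detected level was -4.44 at P42 and -5.01 at P69. The call at P69 therefore does not show a higher level there than at P42. In a pool of sorted cells, fewer cells of a type and less RNA per cell cannot be told apart. The 3 arrays had between 59.6% and 71.4% of their probes well above background and no saturated spot.

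The files deposited for P55 and P69 were exchanged with respect to the authors' own value table, whose P55 column matched the P69 scanner file within 0.05 on the log2 scale at 99.9% of probes, and whose P69 column matched the P55 file at 99.8%. Which of them carries the right day was not settled. The arrays are named here by the label of their scanner file, both were set against P42 throughout, and a difference between P55 and P69 has no settled direction in time.

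The upstream sequences of 4 members are shown because they belong to the pair with the largest measured increases (Cd207 and Itgax) and to the pair with the largest decreases (Batf3 and Fscn1) from P42. Each line gives the 250 bases that end just before the annotated transcript start, read 5′ to 3′ on the gene's strand from RefSeq's windows of assembly GRCm38.p6. Capitals mark matches on either strand to GGAAGT, an ETS-type site to which PU.1 can bind, to TGTGGT, a RUNX site, to TGANTCA, an AP-1 site, or to GAAANNGAA, an IRF-type site. No matches overlapped in these windows. The Cd207 window lies at chr6:83677858-83678107 on the minus strand, that of Itgax at chr7:128129300-128129549 on the plus strand, that of Batf3 at chr1:191098164-191098413 on the plus strand and that of Fscn1 at chr5:142960105-142960354 on the plus strand.
Cd207: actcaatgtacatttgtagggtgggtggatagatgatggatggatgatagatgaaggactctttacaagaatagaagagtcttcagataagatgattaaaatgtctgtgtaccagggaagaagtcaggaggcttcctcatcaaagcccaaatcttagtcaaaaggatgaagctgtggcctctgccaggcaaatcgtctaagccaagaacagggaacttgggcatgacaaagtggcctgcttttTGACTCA
Itgax: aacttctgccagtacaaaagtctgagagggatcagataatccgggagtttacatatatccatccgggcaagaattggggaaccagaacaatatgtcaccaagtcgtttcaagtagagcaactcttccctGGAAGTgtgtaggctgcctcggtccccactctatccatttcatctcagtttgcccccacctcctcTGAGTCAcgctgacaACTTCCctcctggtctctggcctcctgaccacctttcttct
Batf3: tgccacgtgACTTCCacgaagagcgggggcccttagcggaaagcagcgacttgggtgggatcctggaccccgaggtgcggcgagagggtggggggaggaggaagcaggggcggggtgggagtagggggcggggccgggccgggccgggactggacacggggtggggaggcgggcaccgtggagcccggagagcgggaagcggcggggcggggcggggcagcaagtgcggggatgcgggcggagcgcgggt
Fscn1: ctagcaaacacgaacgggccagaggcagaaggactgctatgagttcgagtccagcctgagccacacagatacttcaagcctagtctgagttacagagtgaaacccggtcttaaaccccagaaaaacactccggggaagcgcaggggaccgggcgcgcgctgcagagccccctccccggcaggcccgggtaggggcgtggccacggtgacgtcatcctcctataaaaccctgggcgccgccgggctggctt

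The Cd207 and Itgax windows were poorer in CpG than the other pair, with 1 and 5 CpG dinucleotides against 27 in Batf3 and 18 in Fscn1, and the median over all 32817 mouse windows was 6. The contrast did not extend to all members. Ly75, which was higher on both later arrays, had 17, Flt3 had 13, Irf4 had 11 and Zbtb46 had 0. G and C made up 43.6% of the Cd207 window, 76.0% of that of Batf3 and 62.4% of that of Fscn1, with a median of 52.4% over all windows. The Cd207 window held 1 AP-1 match at -7 to -1, counted back from the transcript start, and no other match. The Itgax window held 1 AP-1 match at -56 to -50 and 2 ETS matches, at -121 to -116 and at -41 to -36. Batf3 had 1 ETS match at -241 to -236, and Fscn1 had none of the 4 motifs. The same windows of the other members held ETS and RUNX matches in Ly75, an ETS match in Flt3, an AP-1 match in Zbtb46 and none in Irf4. Among all windows 19.7% held the ETS letters, 14.0% the RUNX letters, 6.75% the AP-1 letters and 7.12% the IRF letters, and a match says only that the letters are there.

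Of the 9 members with values, 4 were at least 2-fold higher at P55 than at P42 (Cd207, Ly75, Itgax and Cd24a) and 2 were at least 2-fold lower (Batf3 and Fscn1). Among all 15857 genes with a value in this comparison, 29.3% were at least 2-fold higher and 17.0% at least 2-fold lower. The same 4 members were higher and the same 2 lower at P69, where 22.4% of 16168 genes were at least 2-fold higher and 20.9% at least 2-fold lower. No member differed 2-fold between P55 and P69, where 7.96% of 14843 genes were higher and 11.4% lower at P69. The members were picked on these contrasts, so nothing is read from their counts against these shares. Their median log2 change was 0.17 at P55 and 0.08 at P69, beside medians over all genes of 0.22 and 0.15.

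No member was counted at the 10-fold threshold of the study's methods in any comparison, but Ly75 entered only as a lower bound. It was at least 8.18-fold higher than P42 at P55 and at least 9.80-fold higher at P69. Taken from its undetected P42 signal instead, its log2 differences were 3.78 and 4.04. In the authors' value table they were 4.04 and 3.78, and all of these lie past the 10-fold threshold. At that threshold 1.15% of genes were higher and 0.334% lower at P55 than at P42, 0.687% higher and 0.495% lower at P69 than at P42, and 0.0606% higher and 0.135% lower at P69 than at P55.

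**Figure D1:**
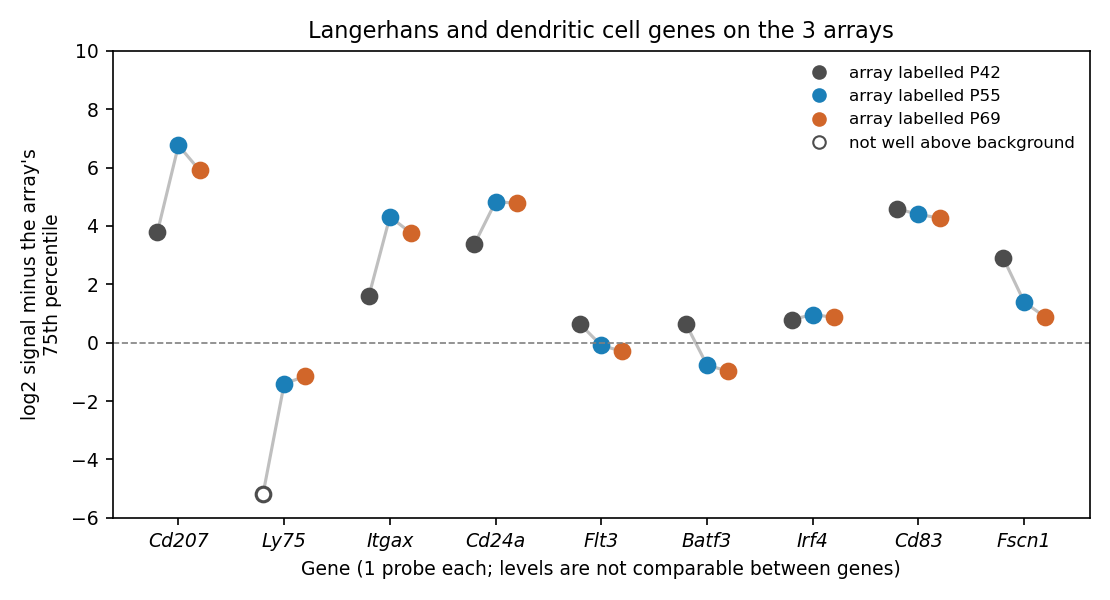
Log2 signal minus the array's 75th percentile (y axis) of the 9 members with a probe (x axis) on the arrays labelled P42, P55 and P69, 1 point per array. Cd207, Ly75, Itgax and Cd24a sat lower at P42 than on both later arrays, Batf3 and Fscn1 sat higher at P42, and the open point marks Ly75 at P42, which was not well above background.

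Errors could be taken only from probes spotted several times on an array, which cover spotting and scanning. Between 145 and 217 such probes per array gave a median SD of 0.108 to 0.126 on the log2 scale, from which a difference between arrays has a technical SD of 0.166 for P55 against P42, 0.174 for P69 against P42 and 0.161 for P69 against P55. Each member probe had 1 spot per array. Amplification, sorting and the mice themselves add spread that these arrays do not show.

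The lectin and endocytic receptors stood lowest at P42. Cd207 (langerin) had processed intensities of 5671 at P42, 53880 at P55 and 55437 at P69, and log2 levels of 3.78, 6.76 and 5.90. The P42 array was the low one, and both later arrays were several fold above it. The difference from P42 was 2.99 at P55, or 7.92-fold, and 2.13 at P69, or 4.36-fold. A larger increase than that of Cd207 was found for 228 of the 13228 genes measured at both P42 and P55, and for 509 of the 14143 measured at both P42 and P69. The rank of the probe among all probes of an array does not rest on scaling, and it gave the same picture. At P42 2433 probes were brighter than that of Cd207, at P55 369 and at P69 384.

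The P55 and P69 arrays differed little at Cd207 by rank, and their difference on the log2 scale depended on scaling. P69 was 0.86 below P55 with the 75th percentile set equal, 0.05 below it after quantile normalization and 0.04 above it with no scaling.

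Ly75 (DEC-205), an endocytic receptor that passes antigen to presentation, had log2 levels of -5.18 at P42, -1.41 at P55 and -1.15 at P69. It was detected on both later arrays and not well above background at P42. Against the lowest level that counted as detected at P42, it was at least 8.18-fold higher at P55 and at least 9.80-fold higher at P69. The difference of P69 from P55 was 0.26, 1.62 times the technical SD. Ly75 was dim at its brightest, with processed intensities of 187 at P55 and 418 at P69, and 20329 and 19295 probes of those arrays were brighter.

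The surface and adhesion molecules moved in the same direction as Cd207. Itgax, the integrin chain CD11c of dendritic cells and of some macrophages, had log2 levels of 1.58 at P42, 4.31 at P55 and 3.76 at P69. Again the P42 array was the low one. The differences from P42 were 2.73 at P55, or 6.64-fold, and 2.17 at P69, or 4.51-fold, and 316 of 13228 and 465 of 14143 measured genes increased more. By rank, 7194 probes were brighter than that of Itgax at P42, 2483 at P55 and 2507 at P69. P69 was 0.56 below P55, 0.02 below it after quantile normalization and 0.34 above it with no scaling.

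Cd24a, a small heavily glycosylated surface protein of type 1 dendritic cells, Langerhans cells and keratinocytes, had log2 levels of 3.38 at P42, 4.83 at P55 and 4.78 at P69. The later arrays were 0.05 apart in these levels, and both were higher than P42. Their closeness depended on the processing. P69 was above P55 by 0.70 after quantile normalization, by 0.64 with normexp background correction and by 0.85 with no scaling. In the other alternatives the arrays were at most 0.11 apart, and with median scaling P69 was 0.09 below P55. The differences from P42 were 1.45 at P55, or 2.74-fold, and 1.40 at P69, or 2.63-fold. The P55 value was below 2-fold after quantile normalization, at 0.81, and with normexp background correction, at 0.84. By rank, 2968 probes were brighter than that of Cd24a at P42, 1906 at P55 and 1202 at P69.

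Cd207 and Itgax had nearby patterns. Both were picked because they were higher at later stages on these arrays, so nothing is read from their closeness. After each of the 13056 genes detected on all 3 arrays was centred on its own mean, the distance between the 3 levels of Cd207 and those of Itgax was 0.23, and Itgax ranked 57 among the genes nearest to Cd207. The 3 nearest genes to Cd207 were Cbr3, Mrpl40 and Exosc3, at distances from 0.014 to 0.038. Those nearest to Itgax were Med17, Papss1 and F11r, at distances from 0.032 to 0.045. With 3 arrays many genes share a pattern, and 66 genes lay within 0.25 of Cd207 and 98 within 0.25 of Itgax.

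Flt3, the receptor for Flt3 ligand and a growth factor receptor of dendritic cell progenitors, had 2 probes. The brighter had log2 levels of 0.63 at P42, -0.10 at P55 and -0.30 at P69, and the dimmer had levels of -0.36, -1.10 and -1.82. Both probes were highest at P42. The brighter differed from P42 by -0.73 at P55 and by -0.93 at P69, the latter turning to 0.24 with no scaling, and the dimmer differed by -0.74 and by -1.46. The probes gave nearly the same value at P55 and stood apart at P69, where only the dimmer was past 2-fold. Probes brighter than the brighter Flt3 probe numbered 10909 at P42, 14323 at P55 and 15280 at P69, so its place on the array dropped as well.

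Of the transcription factors, Batf3, on which type 1 dendritic cells depend, was lower on the later arrays and Irf4 stayed near its P42 level. Batf3 had log2 levels of 0.64 at P42, -0.77 at P55 and -0.98 at P69. The differences from P42 were -1.41, or 2.66-fold lower, and -1.62, or 3.07-fold lower, and P55 and P69 differed by 0.21. Batf3 was lower than at P42 under every alternative tried, with a range of -1.79 to -0.86 at P55 and of -1.83 to -0.46 at P69, and was less than 2-fold lower at P55 with median scaling and at P69 with no scaling. Its probe was outranked by 10860 others at P42, 17352 at P55 and 18467 at P69.

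Irf4, a factor of type 2 dendritic cells and of migrating skin dendritic cells, had log2 levels of 0.79 at P42, 0.96 at P55 and 0.87 at P69. All 3 values lay close together. The differences from P42 were 0.17 and 0.08, that is 1.05 and 0.46 times the technical SD, and each changed sign in some of the alternatives, to as low as -0.20 and -0.13. By rank, 10197 probes were brighter at P42, 10343 at P55 and 10416 at P69.

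The maturation genes did not move together. Cd83, a surface protein of mature dendritic cells, had log2 levels of 4.58 at P42, 4.40 at P55 and 4.27 at P69. These differ little, by -0.18 at P55 and -0.31 at P69 from P42, and both differences changed sign under median scaling or no scaling, reaching 0.38 and 0.85. Fscn1, which bundles actin in the dendrites of mature dendritic cells, had log2 levels of 2.91 at P42, 1.39 at P55 and 0.87 at P69. P42 was the high array. Fscn1 differed from P42 by -1.52, or 2.87-fold lower, and by -2.04, or 4.11-fold lower, and 800 of 13228 and 374 of 14143 measured genes had a larger decrease. It was less than 2-fold lower at P55 with median scaling, at -0.96, and at P69 with no scaling, at -0.88. Its rank fell in the same way, with 3716 probes brighter at P42, 8969 at P55 and 10399 at P69, whereas the counts for Cd83 were 1549, 2374 and 1784.

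**Figure D2:**
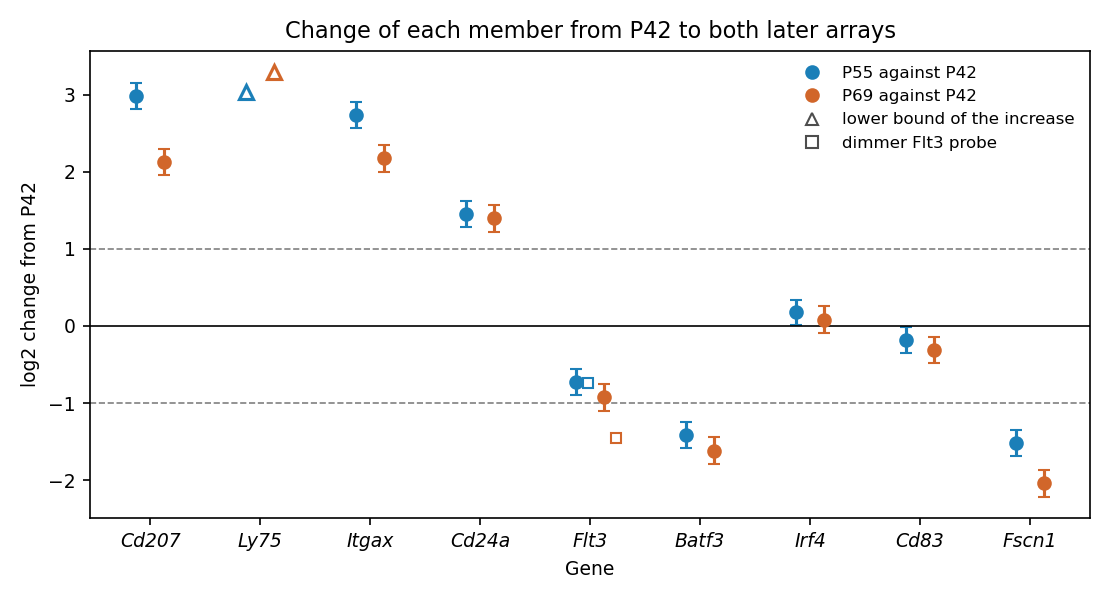
Log2 change from P42 (y axis) of each member (x axis) on the P55 and P69 arrays, with bars of 1 technical SD from repeated spots, triangles for lower bounds, squares for the dimmer Flt3 probe and dashed lines at 2-fold. Cd207, Ly75, Itgax and Cd24a lie above the upper line and Batf3 and Fscn1 below the lower one on both arrays.

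In the order of changes at P55, the lower bound of Ly75 lay within the technical SD of the Cd207 value. Batf3 and Fscn1 also lay within it of each other, while each other neighbouring pair differed by more. At P69 only Itgax and Cd207 were within it, 0.05 apart. The Ly75 values in both orders are lower bounds, so the gap between Ly75 and its neighbour was not measured.

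The wider genes of Langerhans cell development and adhesion were set beside the members. Of 11 such genes, 7 were at least 2-fold higher on both later arrays than at P42, and 1 was at least 2-fold lower at P55 and none at P69. The list's median change was 1.87 at P55 and 1.62 at P69. Cdh1, the E-cadherin by which Langerhans cells hold on to keratinocytes, had log2 levels of -2.69 at P42, 1.83 at P55 and 1.87 at P69. Runx3, a transcription factor that Langerhans cells require, had levels of 0.81, 4.21 and 3.76, and its dimmer probe was also higher than at P42, by 2.55 and 1.70. Both genes were lowest at P42. Id2, another factor that these cells require, was higher by 2.08 and 1.62. Transforming growth factor beta 1 (Tgfb1), which holds Langerhans cells in the epidermis, differed by 0.20 and -0.74, and its receptor chain Tgfbr2 by -1.19 and -0.60, while the dimmer Tgfbr2 probe differed by 0.28 and 0.60. Of this list Cdh1, Epcam and Il34, and of the members Cd24a, are also expressed by keratinocytes.

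The class II genes, by which dendritic cells and macrophages present antigen to T cells and against which the members were picked, had a median change of 0.32 at P55 and -0.53 at P69. Of 12 class II genes, 1 was at least 2-fold higher at P55 and none lower, and 1 was higher and 3 were lower at P69. H2-Aa had log2 levels of 8.04 at P42, 8.15 at P55 and 6.53 at P69, H2-Ab1 of 8.08, 8.27 and 7.34, and H2-Eb1 of 6.93, 7.68 and 6.46. These chains were lowest on the P69 array. Cd74, the invariant chain, had levels of 8.35, 8.33 and 7.39. H2-Oa, a chain of the peptide exchange regulator DO, was the gene past 2-fold upward, by 2.69 and 2.21. The median at P69 turned positive with quantile normalization, at 0.21, and with no scaling, at 0.63, where Cd207 and Itgax were higher by 3.29 and 3.34.

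**Figure D3:**
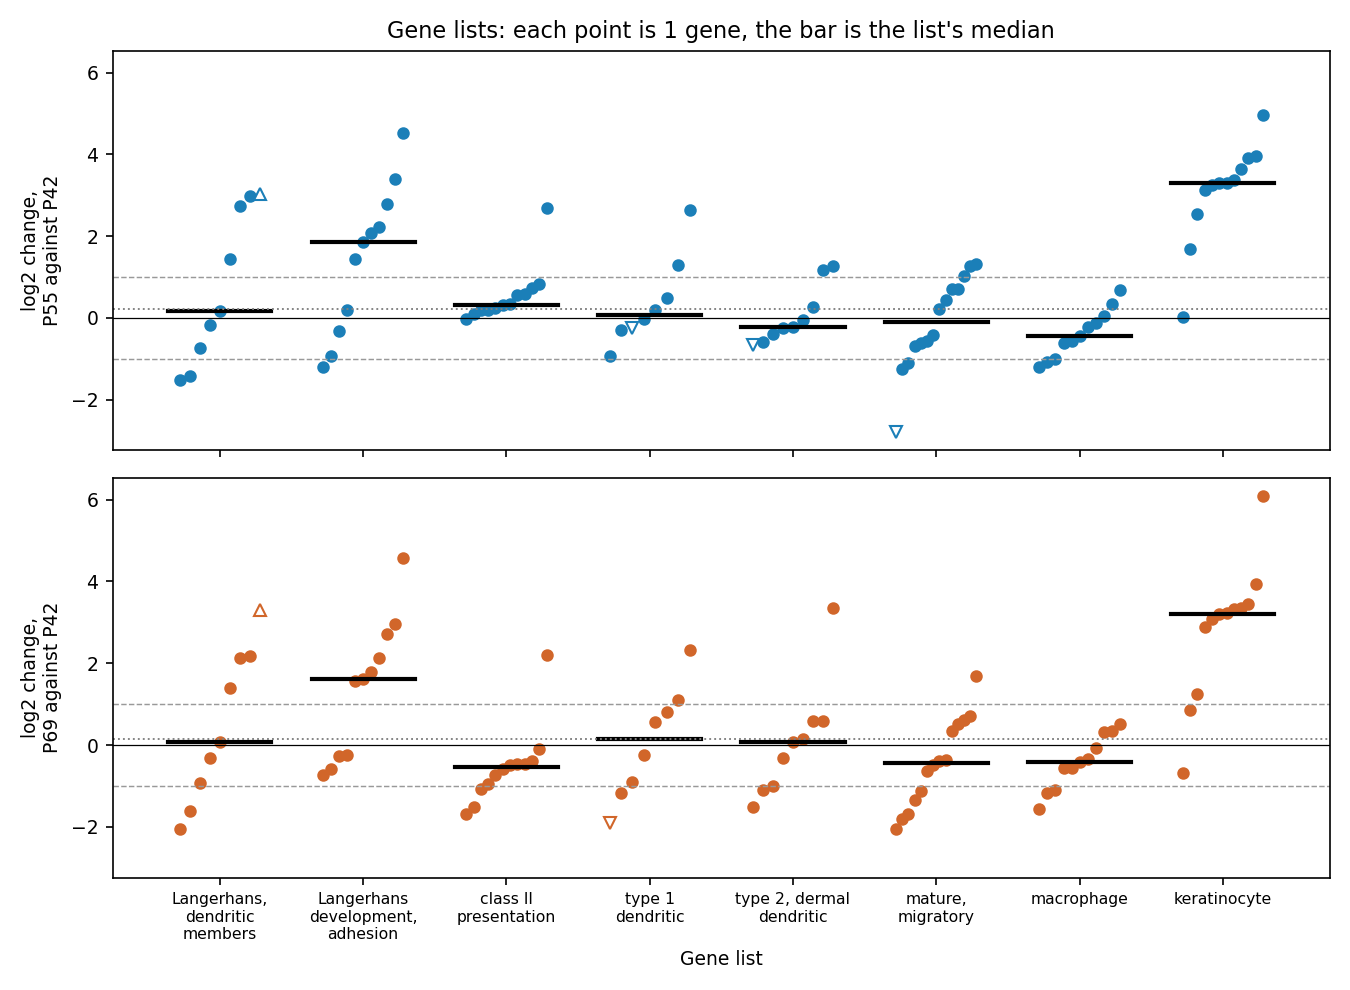
Log2 change from P42 (y axis) of the genes of 8 lists (x axis) at P55 (upper panel) and P69 (lower panel), with 1 point per gene, triangles for bounds, a bar at the list's median, a dotted line at the median of all genes and dashed lines at 2-fold. The members spread to both sides of 0, the Langerhans cell development list had a median of 1.87 and 1.62, and the keratinocyte markers one of 3.29 and 3.22.

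Other dendritic cell lists had medians nearer to 0. Of 8 type 1 conventional dendritic cell genes with a value, 2 were at least 2-fold higher at P55 and none lower, and 2 were higher and 2 lower at P69. Cadm1, an adhesion molecule of these cells, was higher by 2.65 and 2.33, and Irf8, their transcription factor, by 1.29 and 1.11, whereas Naaa differed by -0.94 and -1.16. Xcr1, the chemokine receptor that defines them, differed by -0.03 and -0.91. Of 9 genes of type 2 and dermal dendritic cells, 2 were higher at P55 and none lower, and 1 was higher and 3 were lower at P69. Sirpa, an inhibitory receptor of the type 2 cells, was higher by 1.16 and 0.60, and Cd209a, a lectin of dermal cells, differed by -0.58 and -1.51, while a dimmer Cd209a probe gave 0.36 and -0.57. Itgam, the CD11b chain of the sort, had log2 levels of 8.95 at P42, 8.73 at P55 and 7.85 at P69 on the brightest of its 3 probes. The others differed from P42 by -1.06 and -1.08 at P55 and by -0.79 and -0.13 at P69. On those probes P69 was above P55, by 0.27 and 0.95, opposite to the brightest probe. Cd1d1 had its largest value at P69, 3.36 above P42, and was not well above background at P55. Its other probe was 1.41 above P42 at P69 and also not well above background at P55.

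Of 14 genes of mature and migratory dendritic cells, 3 were at least 2-fold higher and 3 lower at P55, and 1 was higher and 5 were lower at P69. Their median change was -0.10 and -0.44. Pdcd1lg2 and Cd274, the ligands of PD-1, had log2 levels of -0.68 and -1.25 at P42 and of -2.48 and -3.31 at P69. Both were lower at P69, and at P55 Pdcd1lg2 stood at -1.29 while Cd274 was not well above background. Cd200 differed by -1.25 at P55 and 1.68 at P69, opposite in sign on the later arrays. Of the plasmacytoid genes, 1 of 7 was higher at P55 and none lower, and 2 of 8 were higher and 2 lower at P69. Siglech, a lectin of plasmacytoid cells and of some macrophages, had log2 levels of 6.14 at P42, 5.98 at P55 and 5.14 at P69.

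Among growth factors and their signalling, 3 of 10 genes were at least 2-fold higher and 1 lower at P55, and 2 were higher and none lower at P69. Csf2ra, a receptor chain for GM-CSF, had log2 levels of 2.39 at P42, 4.53 at P55 and 3.82 at P69. Stat5b, which signals below that receptor, was higher by 1.60 and 1.10. Kitl, the ligand of Kit, differed by -2.61 and -0.95 and Stat3, which signals below Flt3, by -0.31 and -0.63. Of 15 further transcription factors of dendritic cells, 5 were higher and 4 lower at P55, and 3 were higher and 2 lower at P69. Bcl6 was higher by 1.54 and 1.61, Batf differed by -1.33 and -1.68 and Etv3 by -2.40 and -1.68. Batf, a relative of Batf3 in the AP-1 family, thus had changes close in size to those of Batf3.

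Most keratinocyte markers and some T cell markers were higher on the later arrays than at P42. Of 12 keratinocyte genes, 11 were at least 2-fold higher at P55 than at P42 and 10 at P69, with medians of 3.29 and 3.22, and all 12 were well above background on every array. Lor, of the cornified layer, was higher by 4.96 and 6.09, and Col17a1, of basal keratinocytes, by 3.25 and 3.93. The summed level of the list was 273 at P42, 397 at P55 and 266 at P69 times the 75th percentile, and most of it came from 1 Trp63 probe at log2 levels of 8.03, 8.04 and 7.35, whereas the other Trp63 probe was higher by 3.15 and 4.04. The part of keratinocytes in the changes of Cd207, Itgax and Cd24a was not tested. Of 8 T cell genes, 4 were at least 2-fold higher and none lower at both stages, with Cd3e higher by 4.20 and 3.08 and Cd2 by 2.58 and 2.09. Lck differed by -0.78 and -0.69 and Cd3d by 0.71 and -0.17, so the T cell genes did not move together. The summed level of T cell genes was 8.32 at P42, 17.4 at P55 and 12.2 at P69.

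Macrophage genes differed less. None of 11 was at least 2-fold higher on a later array, and 2 were lower at P55 and 3 at P69. The list's median of -0.44 and -0.42 turned to 0.12 at P55 with median scaling and to 0.74 at P69 with no scaling. With median scaling the P69 median was positive too. The summed level of the list was 849 at P42, 682 at P55 and 471 at P69. Cd163, a scavenger receptor of dermal macrophages, differed by -1.19 and -1.55 and C1qb, a chain of complement C1q, by -1.07 and -1.18. Fibroblast genes had medians of -1.15 and -0.92, endothelial genes of -1.02 and 0.08, B cell genes of -0.74 and -1.07, NK cell genes of -0.54 and -1.26 and mast cell genes of -0.58 and -0.21. Monocyte genes had medians of 0.71 and 0.85, neutrophil genes of 0.79 and 0.65, and melanocyte genes of 1.58 and 1.88. What part any of these cells had in the members' values was not tested.

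**Figure D4:**
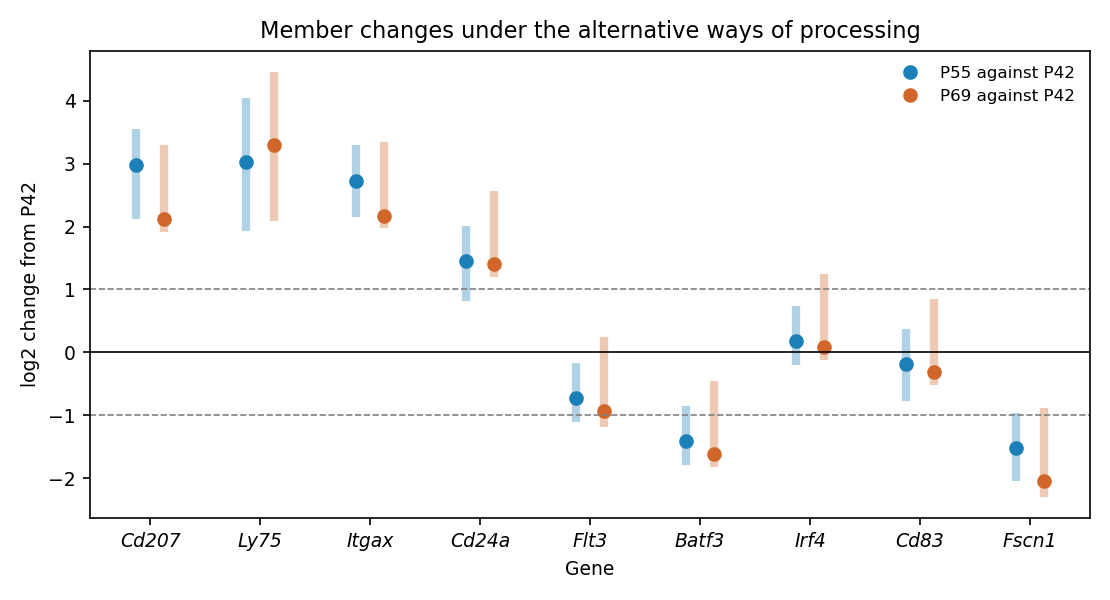
Log2 change from P42 (y axis) of each member (x axis) at P55 and P69, as points for the values reported and as bars for the range over all alternative ways of processing, with dashed lines at 2-fold. Cd207, Ly75, Itgax and Cd24a stayed above 0 and Batf3 and Fscn1 below 0 in every alternative, whereas Irf4 and Cd83 crossed 0 at both stages and Flt3 at P69.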

How the data were processed

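Each array gave 1-colour (Cy3) intensity values that the authors extracted with Agilent Feature Extraction 10.7.3.1 and deposited per spot, corrected for background and not scaled between arrays. A deposited table of log2 values, centred per probe on the median of the 3 arrays and holding only probes with a range of at least 1, was an alternative. How it was scaled before centring is not given in the sources used here. With Python 3.11.15, outlier spots (162 to 281 per array) and control spots were left out, repeated spots were averaged per probe, and levels were taken as log2 of the processed intensity less the 75th percentile of the array. A gene was represented by its brightest probe, matched through the RefSeq transcript in the file, and the array design was annotated on mm9. A comparison kept genes well above background on at least 1 of its arrays, and where 1 side was not, the change is a bound against the lowest detected level. Depth has no meaning here, and the number of arrays limits the precision.

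The members and lists were chosen with earlier results of these data known. All members are named, and other names were taken from the 2 largest increases and decreases per list from P42 to P69 among genes detected on both, the main class II and sorting genes, and the 3 genes nearest to Cd207 and Itgax. Id2, Epcam, Il34 and Clec9a, among others, were named after their values were seen. Alternatives were other scalings, normexp (limma 3.58.1, R 4.3.3), filters, probe rules, the 10-fold threshold and, chosen after seeing the data, centring on the median of all genes. The steps were tested on simulated data.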

Additional observations from a re-analysis of the deposited data

How the results depend on the processing

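No paired analysis was possible because each stage was 1 array and the columns carry no replicate numbers. With 1 array per stage no array could be left out of a comparison, and no error between animals exists, so a difference of Irf4 or Cd83 from P42 was not detectable here. Of 84 alternative values of the counts of members past 2-fold, 77 stayed within 1.5 times the reported count. A move from 2 to 3 members fell within that rule. Counts that were 0 and stayed at 0, as in most alternatives for P69 against P55, were also taken as unchanged, so the 77 says little about stability. With a threshold of 10-fold in place of 2-fold, 0 members were higher and 0 lower at P55 and at P69 than at P42. Ly75 was counted there at its lower bounds. The 2 members lower than P42 became 0 at P55 with median scaling and 0 at P69 with no scaling, and with no scaling 1 member, Ly75, was 2-fold higher at P69 than at P55. The higher to lower split at P69 was then 5 to 0, Irf4 being the added gene. These settings moved the median of all genes by 0.64 (median scaling, P55) and 1.18 (no scaling, P69), and a 75th percentile restricted to commonly detected probes moved it by -0.39 and -0.20. Quantile normalization moved it by 0.09 and 0.15. Of 340 alternative values of single members, 191 moved by less than the technical SD, and none of the values past 2-fold changed sign. Cd207 ranged from 2.13 to 3.54 at P55 and from 1.92 to 3.29 at P69, Itgax from 2.16 to 3.29 and from 1.97 to 3.34, Ly75 from 1.92 to 4.04 and from 2.08 to 4.46, Cd24a from 0.81 to 2.01 and from 1.19 to 2.56, and Fscn1 from -2.04 to -0.96 and from -2.29 to -0.88. With the P55 and P69 files exchanged, all differences between them change sign, and so they did for the 6 members in the authors' table.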
